A study of Mus musculus with 6 samples.

Results

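ADAMTS and ADAM proteins are zinc-dependent proteases that cut proteins of the extracellular matrix or of the cell surface, and 10 of their genes were followed here: Adamts1, Adamts2, Adamts4, Adamts5, Adamts9, Adamts10, Adamts12, Adamts15, Adam12 and Adam19. They were chosen by symbol from the 43432 genes of the deposited count tables, and all 10 were present and passed the filter on low counts. The tables hold 6 RNA sequencing libraries labelled mouse skeletal muscle, 3 with titles reading FID and 3 with titles reading control, all carrying the tag D3. The study is about mice that lose Igf1 from fibro-adipogenic progenitors (FAPs), mesenchymal cells that live between myofibres and make much of the muscle matrix, and asks about IGF-I acting on the cells that secrete it. FID and D3 are not spelled out in the sources used here, which give neither the allele, the Cre driver nor the genotype of the control animals. The protocol covers RNA from tissue and from isolated FAPs without saying which was sequenced here. Both groups share the protocol: tamoxifen at 100 ug per g of body weight for 5 days at 12 to 13 weeks of age, a pause of at least 1 week, and mice of either sex. Whether each library stands for its own mouse is not stated, and the p-values therefore reflect library-to-library spread, which may be technical.

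Gene counts summed to 8750157 to 9676812 in the FID libraries, against 5201853 in control 1, 9994541 in control 2 and 10093757 in control 3. Igf1, the gene that the model deletes, stood at 109, 107 and 81.6 CPM (counts per 1000000 counts of a library, after TMM scaling) in FID 1, 2 and 3, against 134, 60.4 and 106 CPM in control 1, 2 and 3. The whole-gene count therefore gives no check of the labels, and FID and control below mean the libraries labelled so. The 10 listed markers of mature myofibres summed to 21.5 to 32.0 CPM in FID libraries, against 8.52 to 70.0 CPM in control libraries, although the label is skeletal muscle. Acta1, the highest of them, reached 30.9 CPM, and Ckm and Mb stayed at or below 1.19 and 1.56 CPM. The 12 FAP markers summed to 23762 to 35540 CPM in FID libraries, against 46457 to 51898 CPM in control libraries. The 12 macrophage markers summed to 6541 to 9356 CPM in FID libraries, against 3199 to 5295 CPM in control libraries. In such a mixture, fewer cells of a type and less RNA per cell cannot be told apart.

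ADAMTS proteases are secreted. Adamts1, Adamts4, Adamts5, Adamts9 and Adamts15 cut large proteoglycans such as versican and aggrecan, and Adamts2 removes the amino-terminal propeptide of fibrillar procollagens. ADAM proteins are mostly anchored in the membrane and shed the outer parts of other proteins. In injured muscle of mice, Adam12 marks stromal cells that take part in scar formation.

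All 10 proteins share a zinc-binding site, and its coding sequence is shown because it is the catalytic centre of these enzymes. The 33 bases were read from the longest coding transcript of each gene in GENCODE M21, 5′ to 3′ on the coding strand. Capitals mark the codons of the zinc-binding histidines and of the catalytic glutamate. Another codon in capitals, between the middle and the final histidine, encodes asparagine in 4 genes and glycine in 6.
Adamts1: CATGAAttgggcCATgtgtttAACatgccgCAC
Adamts4: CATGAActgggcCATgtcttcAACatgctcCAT
Adamts9: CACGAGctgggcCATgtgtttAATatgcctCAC
Adamts15: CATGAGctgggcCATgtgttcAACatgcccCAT
Adamts5: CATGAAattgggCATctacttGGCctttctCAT
Adamts2: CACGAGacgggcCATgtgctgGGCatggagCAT
Adamts12: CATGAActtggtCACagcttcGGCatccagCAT
Adamts10: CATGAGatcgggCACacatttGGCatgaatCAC
Adam12: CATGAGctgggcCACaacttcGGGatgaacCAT
Adam19: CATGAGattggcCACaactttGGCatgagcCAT

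Adamts1, Adamts4, Adamts9 and Adamts15 carry the asparagine codon, and Adamts5, also a proteoglycan-cutting enzyme, carries glycine with the remaining genes. Over the 45 pairs, between 17 and 30 of the 33 bases were the same. Adamts4 and Adamts15 shared 30, and Adam12 and Adam19 shared 28. In Adam12 (mm10 chromosome 7, 133961158 to 133961190, minus strand) and Adam19 (chromosome 11, 46125050 to 46125082, plus strand) the site lay within exon 11, whereas in each of the 8 ADAMTS genes it was split by an intron. In Adamts1 it ran from exon 3 into exon 4 (chromosome 16, 85799191 to 85799545, minus strand), and in Adamts12 from exon 7 into exon 8 (chromosome 15, 11241529 to 11255564, plus strand).

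Levels of different genes were compared as CPM per kilobase of exonic sequence, averaged over the 6 libraries. They spanned a 141-fold range. Adamts1 was highest, at 119 CPM per kb. Adamts4 (44.3 CPM per kb) and Adamts2 (38.4 CPM per kb) followed, but Adamts4 lay above Adamts2 in 1 library only, control 1, so their order rests on that library. Adam12 came next at 27.05 CPM per kb and lay below Adamts2 in all 6 libraries. It lay above Adamts4 in FID 3 (24.3 against 22.3 CPM per kb) and control 3 (39.4 against 36.9 CPM per kb). Adamts12 (12.8 CPM per kb), Adam19 (11.5 CPM per kb), Adamts5 (7.69 CPM per kb) and Adamts9 (6.66 CPM per kb) formed a middle range. Their neighbours in that order changed places between libraries, with Adamts12 above Adam19 in 4 of 6, Adam19 above Adamts5 in 5 of 6, and Adamts5 above Adamts9 in 4 of 6. Adamts10 (2.63 CPM per kb) and Adamts15 (0.845 CPM per kb) were lowest, in that order in every library.

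**Figure D1:**
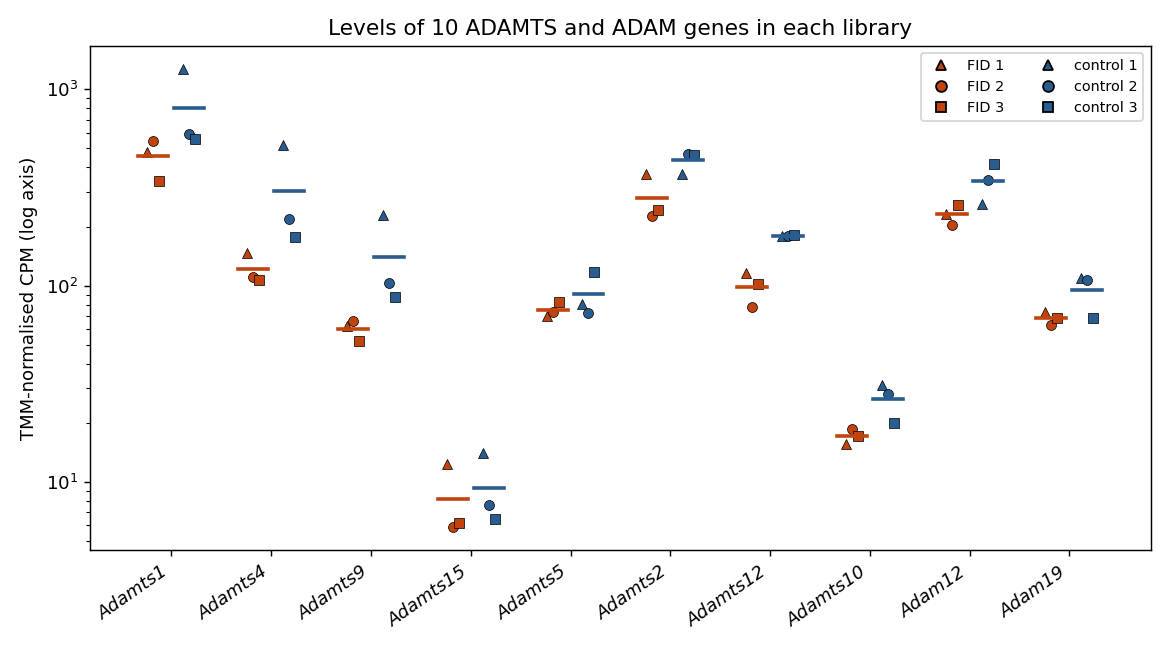
CPM of the 10 genes on a log axis, with 1 point per library (FID left, control right; the symbol gives the replicate) and a bar at the group mean (3 libraries each). The bar of FID lies below that of control for every gene, and the triangle of control 1 stands apart for Adamts1, Adamts4 and Adamts9.

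Lower values in FID than in control were found for all 10 proteases, by group mean and by fitted fold change. The median log2 fold change of the 10, FID over control, was -0.63, beside -0.02 over all 12881 tested genes, of which 52.2% lay below 0. In 7 of the 10, every FID library lay below every control library, a separation in that direction that 12.3% of tested genes showed. An unadjusted p under 0.05 in edgeR's two-sided quasi-likelihood test was reached by 8 of the 10, all lower in FID. Of tested genes, 9.21% were lower in FID at that p. The number among the 10 was 4 without FID 1, FID 2 or control 2. The share of tested genes lower at that p was then 8.57%, 4.79% and 7.04%. The number was 5 without FID 3 (4.17% of tested genes) and 6 without control 1 (8.66%) or control 3 (10.9%). None of the 10 passed the adjusted test in edgeR (0 of 12881 genes did, 0%), where 2449 genes had an unadjusted p under 0.05. DESeq2 called 3 of the 10, Adamts4, Adamts9 and Adamts12, all lower, beside 2.27% of tested genes called lower. Limma-voom called 0 of the 10. With sample weights, a variant chosen after the data were seen, it called 6, all lower, beside 5.01% of tested genes called lower.

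**Figure D2:**
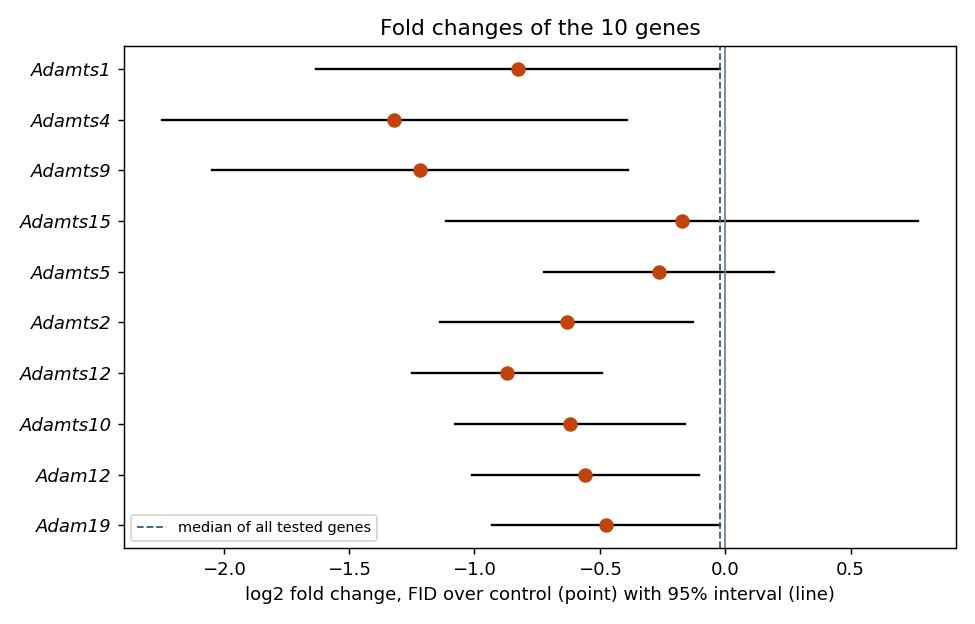
Log2 fold change of each gene, FID over control, with its approximate 95% interval from edgeR's quasi-likelihood fit on 3 against 3 libraries. All 10 points lie below 0, and the intervals of Adamts15 and Adamts5 include 0.

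Among the proteoglycan-cutting enzymes, Adamts1 (ENSMUSG00000022893, mm10 chromosome 16, 85793827 to 85803113, minus strand) is the most abundant and is known for its role in ovulation. Adamts1 measured 480, 546 and 340 CPM in FID 1, 2 and 3, against 1273, 595 and 556 CPM in control 1, 2 and 3. The groups did not overlap, but FID 2 and control 3 nearly touched, and control 1 stood at 2.14 times the next highest library. For Adamts1 the fitted log2 fold change was -0.83 (SE 0.35, adjusted p 0.254 by edgeR).

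Adamts4 (ENSMUSG00000006403, chromosome 1, 171250421 to 171260637, plus strand), an aggrecan-cutting enzyme induced by inflammation, had the lowest fold change of the 10. It measured 148, 111 and 107 CPM in FID 1, 2 and 3, against 518, 218 and 177 CPM in control 1, 2 and 3. Every FID library lay below every control library, and control 1 was at 2.38 times the next highest. The log2 fold change of Adamts4 was -1.32 (SE 0.40, adjusted p 0.169 by edgeR and 0.0226 by DESeq2).

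Adamts9 (ENSMUSG00000030022, chromosome 6, 92772699 to 92943492, minus strand), which cuts versican, was also highest in control 1. It measured 62.0, 66.0 and 52.5 CPM in FID 1, 2 and 3, against 230 CPM in control 1, 103 CPM in control 2 and 87.7 CPM in control 3. The groups did not overlap, and control 1 was at 2.23 times the next highest. In the fit, Adamts9 had a log2 fold change of -1.22 (SE 0.36, adjusted p 0.164 by edgeR and 0.0239 by DESeq2).

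Adamts15 (ENSMUSG00000033453, chromosome 9, 30899155 to 30922452, minus strand) rested on few reads, 56 to 110 per library. It stood at 12.4, 5.88 and 6.16 CPM in FID 1, 2 and 3, against 14.0, 7.60 and 6.44 CPM in control 1, 2 and 3. The groups overlapped, with FID 1 above control 2 and control 3. The log2 fold change of Adamts15 was -0.17 with an interval of -1.11 to 0.77 (edgeR adjusted p 0.848), an interval that includes no difference.

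Adamts5 (ENSMUSG00000022894, chromosome 16, 85856173 to 85901828, minus strand) is the main aggrecan-cutting enzyme of mouse cartilage and lies 53.1 kb from Adamts1 with no coding gene between them. Adamts5 measured 69.9, 73.7 and 82.6 CPM in FID 1, 2 and 3, against 81.1, 72.5 and 118 CPM in control 1, 2 and 3. The groups overlapped, and control 3, not control 1, was highest. Adamts5 had a log2 fold change of -0.27 with an interval of -0.72 to 0.19 (edgeR adjusted p 0.494).

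Of the genes tied to collagen and matrix assembly, Adamts2 (ENSMUSG00000036545, chromosome 11, 50602084 to 50807573, plus strand), the procollagen amino-propeptidase, measured 372, 228 and 243 CPM in FID 1, 2 and 3. Adamts2 stood at 372 CPM in control 1, 471 CPM in control 2 and 463 CPM in control 3. The groups were separated by next to nothing, with FID 1 at 372.09 CPM and control 1 at 372.22 CPM. The log2 fold change of Adamts2 was -0.63 (SE 0.22, adjusted p 0.193 by edgeR).

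Adamts12 (ENSMUSG00000047497, chromosome 15, 11064790 to 11349231, plus strand), which can cut cartilage oligomeric matrix protein, had the most even control values of the 10. It measured 116, 78.1 and 102 CPM in FID 1, 2 and 3, against 180, 179 and 182 CPM in control 1, 2 and 3. The highest FID library lay well below the lowest control library. The means were 98.6 ± 18.98 CPM in FID and 180 ± 1.61 CPM in control (SD, n = 3 each), a level 45.3% lower in FID by the fitted fold change. The log2 fold change of Adamts12 was -0.87 (SE 0.16), which ranked it 79 of 12881 genes by p, with adjusted p of 0.136 in edgeR and 5.13e-04 in DESeq2. Its adjusted p ranged from 5.13e-04 to 0.443 over the alternatives tried. With 3 against 3 libraries, the smallest two-sided p that exact permutation allows for 1 gene is 0.10. Adamts12 had that value, as did the other members whose groups did not overlap.

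Adamts10 (ENSMUSG00000024299, chromosome 17, 33524204 to 33553782, plus strand) acts on fibrillin microfibrils, and its loss in humans causes Weill-Marchesani syndrome. Adamts10 stood at 15.6, 18.6 and 17.1 CPM in FID 1, 2 and 3, against 31.1, 28.1 and 19.9 CPM in control 1, 2 and 3. The groups did not overlap, with control 3 close to FID 2. Adamts10 had a log2 fold change of -0.62 (SE 0.20, adjusted p 0.179 by edgeR).

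Adam12 (ENSMUSG00000054555, chromosome 7, 133883199 to 134232146, minus strand) can cut binding proteins of insulin-like growth factors, the ligand family that the study is about. Adam12 measured 232, 205 and 257 CPM in FID 1, 2 and 3, against 260, 346 and 416 CPM in control 1, 2 and 3. Control 1 was the lowest control library here and lay just above FID 3, the reverse of its place in Adamts1, Adamts4 and Adamts9. Adam12 had a log2 fold change of -0.56 (SE 0.19, adjusted p 0.196 by edgeR).

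Adam19 (ENSMUSG00000011256, chromosome 11, 46055992 to 46147343, plus strand), which sheds neuregulin, measured 73.7, 62.8 and 68.5 CPM in FID 1, 2 and 3. In control 1, 2 and 3 it stood at 110, 107 and 68.6 CPM. Control 3 lay among the FID libraries, so the groups overlapped. Adam19 had a log2 fold change of -0.48 (SE 0.19, adjusted p 0.243 by edgeR).

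**Figure D3:**
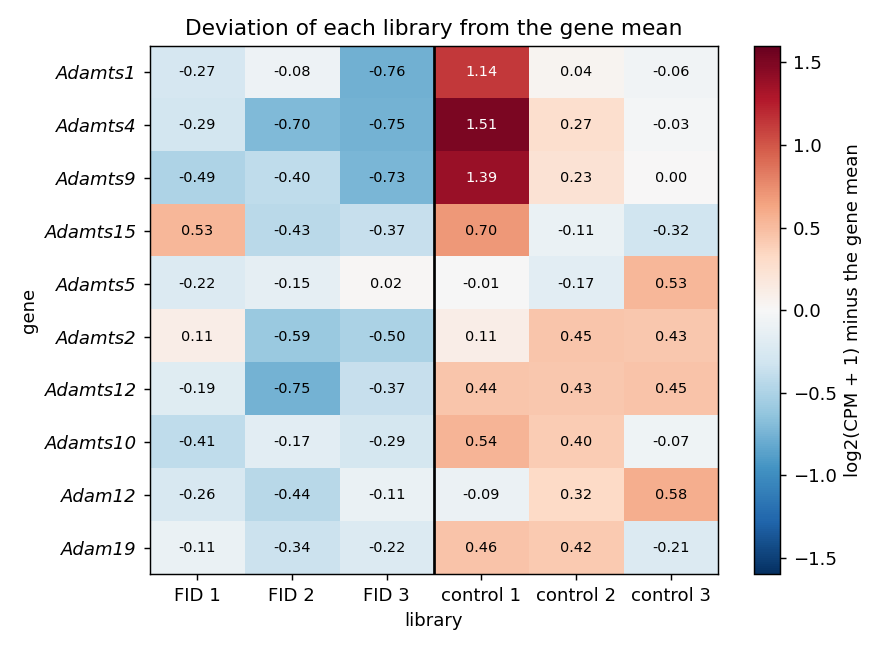
Deviation of each library (columns, FID left of control) from the mean of each gene (rows), in log2(CPM + 1), with red above and blue below the mean. Control 1 reaches 1.14, 1.51 and 1.39 for Adamts1, Adamts4 and Adamts9, while Adamts12 deviates by 0.43 to 0.45 in all 3 control libraries.

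Within the control group, control 1 was the highest library for 6 of the 10 genes: Adamts1, Adamts4, Adamts9, Adamts10, Adamts15 and Adam19. The margin over the next library was wide only in Adamts1, Adamts4 and Adamts9, since in the other 3 control 1 stood at 1.02 to 1.13 times that library. In Adamts2, Adamts5, Adamts12 and Adam12 another control library was highest. Markers of some other cell types were also highest in control 1. All 9 endothelial markers were highest in it, and their sum was 1023 to 1421 CPM in FID libraries, against 3173, 1567 and 1105 CPM in control 1, 2 and 3. Of 9 pericyte and smooth muscle markers, 7 were highest in control 1, with sums of 1152 to 1378 CPM in FID libraries, against 2690, 1478 and 1310 CPM in control 1, 2 and 3. All 6 tenocyte markers were highest in control 1 too, with sums of 352 to 964 CPM in FID libraries, against 564 to 2073 CPM in control libraries. Of 8 satellite cell markers 7 were highest in control 1, as were 7 of 10 myofibre and 7 of 12 FAP markers, but 0 of 12 macrophage and 0 of 6 neutrophil markers. No endothelial or pericyte marker was at 0 in any library, and Scx, a tenocyte marker, had no count in control 3. The share of all tested genes that were highest in control 1 was not computed, so these counts have no background beside them. The part of these cells in the protease values was not tested.

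Leaving out control 1 moved the fold changes of Adamts4, Adamts9 and Adamts1 most among the 10. The log2 fold change of Adamts1 was then -0.34, that of Adamts4 -0.70 and that of Adamts9 -0.67, whereas Adamts12 had -0.87, Adamts2 -0.735 and Adam12 -0.72. Adamts15 changed sign, to 0.21. Leaving out a library cannot make separate groups overlap, so the 7 genes without overlap stayed so by construction. That separation was then shown by 19.8% of tested genes. An unadjusted p under 0.05 in edgeR was reached by 6 of the 10, all lower, beside 8.66% of tested genes lower at that p. edgeR's adjusted p, with none of the 10 called, lay at 0.0918 for Adamts12, 0.0954 for Adam12 and 0.0982 for Adamts9. DESeq2 without control 1, chosen after the data were seen, called 5 of the 10, all lower, beside 2.35% of tested genes called lower. Those were Adamts2, Adamts4, Adamts9, Adamts12 and Adam12, with DESeq2 adjusted p of 0.0373, 0.0176, 0.00835, 0.00105 and 0.00181.

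FAP markers were lower in the same libraries, with all 12 having a log2 fold change below 0 and a median of -0.54. The proteases were therefore also set against the summed CPM of these 12 markers, as CPM per 1000 CPM of marker. Col1a1 and Col3a1 made up 76.7 to 82.6% of that sum. On this scale none of the 10 genes separated the groups, beside 0.171% of tested genes with every FID library lower and 65.5% with every FID library higher. Of the 10, 7 had the higher mean in FID and 3 in control. The share of all tested genes with a higher mean in FID was not computed, here or for Pdgfra below. Adamts12 averaged 3.54 ± 0.658 in FID and 3.63 ± 0.247 in control (SD, n = 3 each), and Adamts2 averaged 9.88 ± 0.806 in FID and 8.79 ± 1.33 in control. Adam12 averaged 8.47 ± 2.18 in FID and 6.92 ± 1.92 in control. Adamts4 averaged 4.34 ± 0.181 in FID and 6.08 ± 3.60 in control, where control 1 was at 10.2 and the other control libraries at 4.20 and 3.82. The direction depended on the denominator. Relative to Pdgfra alone, a surface receptor that marks FAPs, 2 of the 10 had the higher mean in FID and 8 in control. None of the 10 separated the groups on that scale either, beside 0.272% of tested genes lower and 33.8% higher in every FID library. Adamts12 averaged 0.187 ± 0.0594 CPM per CPM of Pdgfra in FID and 0.251 ± 0.0597 in control (SD, n = 3 each), and Adamts4 averaged 0.232 ± 0.0793 in FID and 0.464 ± 0.393 in control. Macrophage markers lay the other way, all 12 with a log2 fold change above 0. The part of cell content in the differences was not tested.

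**Figure D4:**
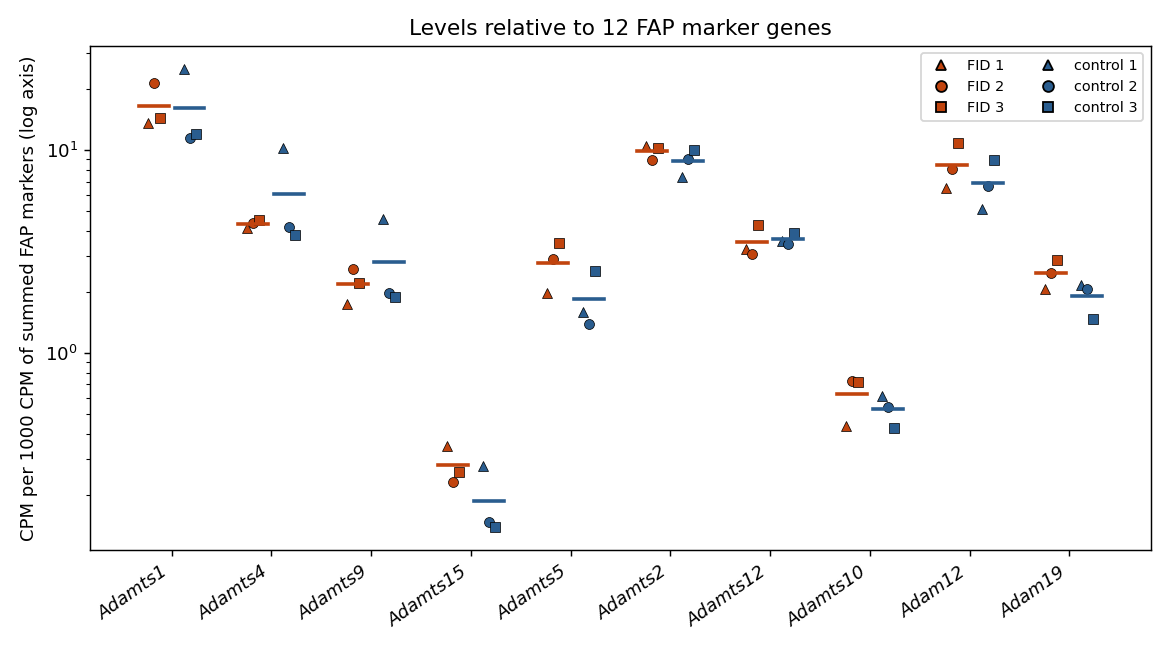
CPM of each gene per 1000 CPM of the 12 summed FAP markers, on a log axis, with 1 point per library (FID left, control right) and a bar at the group mean (3 libraries each). The groups overlap for all 10 genes, whereas by CPM alone they do not overlap for 7 of the 10.

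Other ADAMTS genes were next examined. Of 11 further ADAMTS genes, 7 passed the filter, 0 were called by edgeR or DESeq2, and all 7 lay below 0 with a median log2 fold change of -0.40. Adamts13, Adamts16, Adamts19 and Adamts20 stayed at or below 0.989 CPM. Adamts7, a protease of vascular smooth muscle that cuts cartilage oligomeric matrix protein, stood at 21.3, 10.2 and 12.1 CPM in FID 1, 2 and 3, against 43.3, 29.4 and 19.6 CPM in control 1, 2 and 3. FID 1 and control 3 overlapped, and the log2 fold change of Adamts7 was -1.07 (SE 0.37, adjusted p 0.194 by edgeR). The procollagen propeptidases Adamts3 and Adamts14, relatives of Adamts2, had -0.40 (SE 0.21) and -0.41 (SE 0.24), with edgeR adjusted p of 0.332 and 0.391. Adamts6, Adamts8, Adamts17 and Adamts18 stayed at or below 8.90 CPM, and their groups overlapped.

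ADAMTS-like proteins resemble the secreted proteases but lack the catalytic domain, and several bind fibrillin microfibrils. Of 7 genes, 6 passed the filter, and all 6 lay below 0 with a median of -0.57. EdgeR called 0 of them and DESeq2 called 1, lower, beside 2.27% of tested genes called lower. Adamtsl3 stood at 48.8, 23.7 and 32.8 CPM in FID 1, 2 and 3, against 61.5, 81.2 and 95.1 CPM in control 1, 2 and 3. The groups did not overlap, and the log2 fold change of Adamtsl3 was -1.18 (SE 0.28, adjusted p 0.136 by edgeR and 0.00639 by DESeq2). Adamtsl5 did not overlap either, with -0.46 (SE 0.18, adjusted p 0.232 by edgeR), whereas Adamtsl1, Adamtsl4, Papln and Thsd4 did, with log2 fold changes of -0.23, -0.44, -0.75 and -0.68.

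The other ADAM genes were mostly nearer to level. Of 10, 9 passed the filter, with 7 below 0, 2 above 0 and a median log2 fold change of -0.17. EdgeR called 0 of them and DESeq2 called 1, Adam8, in the direction in which it called 3.66% of tested genes. Adam8, a sheddase of myeloid cells, stood at 233, 305 and 355 CPM in FID 1, 2 and 3, against 138, 148 and 133 CPM in control 1, 2 and 3. Each FID library lay above each control library, and the log2 fold change of Adam8 was 1.09 (SE 0.17, adjusted p 0.122 by edgeR and 2.28e-05 by DESeq2). The broadly expressed sheddases had intervals that included 0. Adam10 averaged 213 ± 2.06 CPM in FID and 232 ± 21.05 CPM in control (SD, n = 3 each), with an interval of -0.41 to 0.16 for the log2 fold change, although each FID library lay below each control library. Adam17, which releases tumour necrosis factor, averaged 178 ± 10.2 CPM in FID and 166 ± 7.79 CPM in control, with an interval of -0.17 to 0.38. Adam9 averaged 260 ± 21.1 CPM in FID and 266 ± 51.6 CPM in control, with an interval of -0.44 to 0.37. The scarce Adam11 and Adam22 were also lower in each FID library than in each control library, with log2 fold changes of -1.16 (SE 0.42) and -0.82 (SE 0.36) and adjusted p of 0.204 and 0.277 by edgeR. Adam15, Adam23 and Adam33 overlapped between the groups, with log2 fold changes of -0.17, -0.36 and -0.30.

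**Figure D5:**
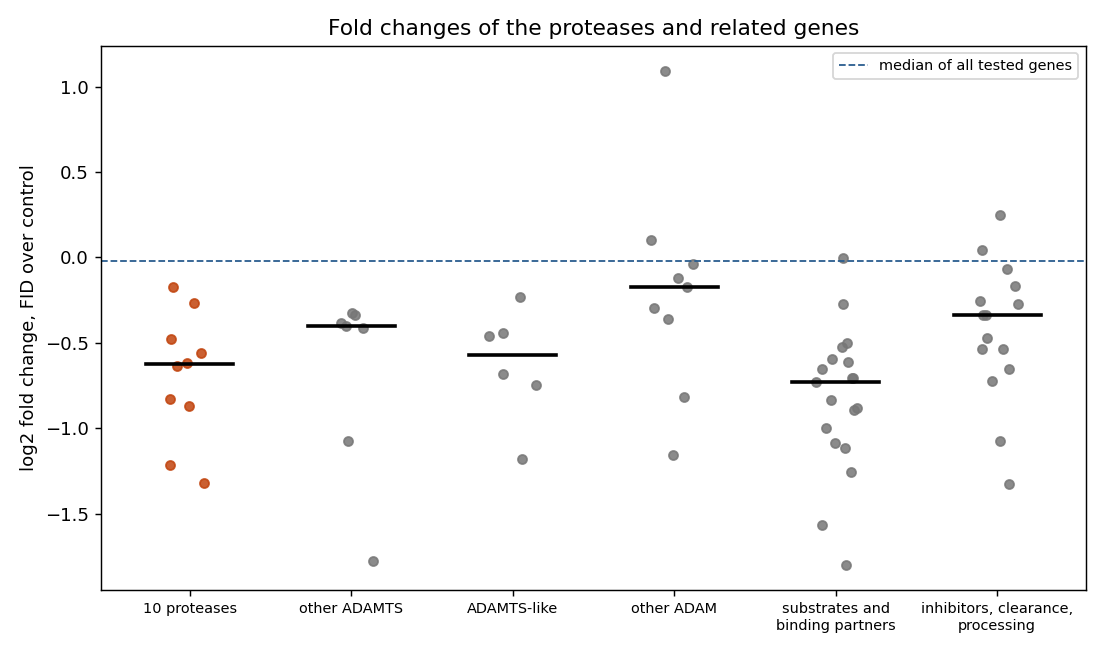
Log2 fold changes, FID over control, of the 10 proteases and of related genes that passed the filter (points), with the median of each list (bar) and of all tested genes (dashed line). The medians are -0.63 for the 10 proteases, -0.40, -0.57 and -0.17 for other ADAMTS, ADAMTS-like and other ADAM genes, -0.73 for substrates and -0.34 for regulators.

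Genes of matrix proteins that these proteases cut or bind also had RNA fold changes below 0, FID over control. Of 21 listed, 19 passed the filter, with a median log2 fold change of -0.73. All 19 lay below 0, beside 52.2% of tested genes. Of the 19, 0 were called by edgeR and 11 by DESeq2, all lower, beside 2.27% of tested genes that DESeq2 called lower. Col1a1, Col3a1 and Dcn are also among the FAP markers, so this list is not separate from those. Col1a1, a substrate of Adamts2, averaged 11858 ± 2228 CPM in FID and 21995 ± 1552 CPM in control (SD, n = 3 each). Col1a1 had a fitted log2 fold change of -0.89 (SE 0.18, adjusted p 0.136 by edgeR and 2.74e-04 by DESeq2). Biglycan (Bgn) and the type V collagen gene Col5a1 had -0.66 (SE 0.14) and -1.08 (SE 0.24), the basement membrane gene Nid2 -0.61 (SE 0.14), tenascin C (Tnc) -1.12 (SE 0.27) and the microfibril gene Fbn2 -1.80 (SE 0.44). Versican (Vcan), the main large proteoglycan of loose stroma and a substrate of Adamts1, Adamts4, Adamts5 and Adamts9, was less different. It stood at 435, 435 and 577 CPM in FID 1, 2 and 3, against 422, 632 and 690 CPM in control 1, 2 and 3. The groups overlapped, with control 1 the lowest library of all, and the log2 fold change of Vcan was -0.27 with an interval of -0.78 to 0.23 (edgeR adjusted p 0.525).

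Genes that process, help or restrain the proteases were mixed. Of 16 listed, 15 passed the filter, 13 lay below 0 and 2 above, with a median log2 fold change of -0.34. EdgeR called 0 of them. DESeq2 called 3, Pcsk5, Fbln1 and Pcsk6, all lower, beside 2.27% of tested genes called lower. Pcsk5, a convertase of the kind that removes propeptides of secreted proteins, stood at 25.0, 13.4 and 16.3 CPM in FID 1, 2 and 3, against 40.7, 44.4 and 51.9 CPM in control 1, 2 and 3. All FID libraries lay below all control libraries, and the log2 fold change of Pcsk5 was -1.33 (SE 0.24, adjusted p 0.136 by edgeR and 2.48e-04 by DESeq2). The related convertase Pcsk6 had -0.65 (SE 0.15, DESeq2 adjusted p 0.0202), and Furin, which removes the propeptides of many ADAMTS and ADAM proteins, had -0.54 (SE 0.22, DESeq2 adjusted p 0.198). Fbln1, a matrix protein that acts as a cofactor of Adamts1, averaged 34.8 ± 9.23 CPM in FID and 73.6 ± 15.6 CPM in control (SD, n = 3 each), with a log2 fold change of -1.08 (SE 0.23, DESeq2 adjusted p 0.00382). Lrp1, the receptor that clears Adamts4 and Adamts5 from the matrix, had -0.54 (SE 0.17), and the membrane-anchored protease inhibitor Reck -0.34 (SE 0.13). Timp3, the tissue inhibitor with the strongest effect on ADAMTS proteases, stood at 78.4, 110 and 76.8 CPM in FID 1, 2 and 3, against 210, 93.4 and 66.4 CPM in control 1, 2 and 3. The groups overlapped, with control 1 highest as for Adamts1, Adamts4 and Adamts9, and the log2 fold change of Timp3 was -0.47 (SE 0.40, adjusted p 0.559 by edgeR).

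Likeness between genes was measured as the root mean square difference of their mean-centred log2(CPM + 1) over the 6 libraries, as a description. Adamts4 and Adamts9 were each other's nearest relative among the 10, at 0.158, with 7 genes nearer to Adamts4 and 16 nearer to Adamts9. The gene nearest to Adamts4 was Matn4, at 0.0703, and that nearest to Adamts9 was Mast4, at 0.0995. The other pairs of mutual nearest members were less alike relative to other genes. Adamts2 and Adamts12 differed by 0.202, with 197 genes nearer to Adamts2 and 107 nearer to Adamts12. Adamts10 and Adam19 differed by 0.159, with 125 and 163 genes nearer, and Adamts5 and Adam12 by 0.241, with 1554 and 752 genes nearer. Among all genes, Cntrob was nearest to Adamts12, at 0.0631, and Pcdh18 to Adam12, at 0.0976. Adamts1, next to Adamts5 on the chromosome, was nearer to Adamts9, at 0.206, with 185 genes nearer than that.

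Promoters are shown for the most abundant gene, Adamts1, and for Adamts12, whose control values were the most even. The 250 bases ahead of the start site come from RefSeq (GRCm38.p6), 5′ to 3′ on the gene's strand. Capitals mark matches on either strand to any of 4 motifs. The GC box was searched as GGGCGG, and the TATA box as TATAAA. The motif of the AP-1 factors was searched as TGANTCA. The motif of the TEAD factors, which act with YAP and TAZ, was searched as GGAATG.
Adamts1 (chr16:85803114-85803363, minus strand): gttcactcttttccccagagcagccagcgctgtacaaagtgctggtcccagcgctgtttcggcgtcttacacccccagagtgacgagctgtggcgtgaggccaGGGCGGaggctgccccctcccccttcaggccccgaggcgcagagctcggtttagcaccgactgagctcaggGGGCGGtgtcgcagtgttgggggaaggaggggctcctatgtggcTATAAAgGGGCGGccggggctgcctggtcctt
Adamts12 (chr15:11064523-11064772, plus strand): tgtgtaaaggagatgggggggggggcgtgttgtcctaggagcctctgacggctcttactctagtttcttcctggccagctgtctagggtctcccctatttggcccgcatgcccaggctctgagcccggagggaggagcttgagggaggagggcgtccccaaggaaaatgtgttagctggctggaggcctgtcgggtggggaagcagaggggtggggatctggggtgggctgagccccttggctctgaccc

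The window of Adamts1 held 3 GC boxes and 1 TATA box, and that of Adamts12 held none of the motifs searched. Of 32851 promoter windows of that length, 32.7% held a GC box, 12.4% a TATA box, 6.75% an AP-1 match and 12.6% a TEAD match. A match is a description of the letters and not evidence that a factor binds there.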

How the data were processed

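Raw counts of reads per Ensembl gene were deposited by the authors for 6 libraries. Tools named per the submitters' processing notes, without their roles, are Bowtie2 2.5.4, STAR, HTSeq, cutadapt, DESeq2 and SAMtools, on build mm10. Per the labels' protocols, libraries were strand-specific, with an input of 1000 ng RNA and a RIN over 5.6. Neither the annotation release nor the strand setting of the counting is given in the sources used here. Entries naming no gene (9.60 to 10.9% of each file's total) were left out. Of 43432 genes, 97.8% matched a symbol, and lengths and positions came from GENCODE M21.

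Genes were filtered with filterByExpr (minimum count 10, minimum total 15), which left 12881, and scaled with TMM factors. FID was compared with control by the quasi-likelihood test of edgeR 4.0.16 in R 4.3.3, two-sided, with group as the only term and Benjamini-Hochberg adjustment over all tested genes at 0.05. Standard errors were derived from the log2 fold change and its F statistic, which makes the 95% intervals approximate. The fit was tested on simulated data. DESeq2 1.42.0, limma 3.58.1, other scalings, no filter, a replicate block and leaving out each library were alternatives. Libraries of a group differed by more than sampling noise (chi-square per degree of freedom 14.1 to 46.0, genes of 20 or more counts), and none was taken for a copy. A count of 0 allows up to 3 counts, 0.293 to 0.593 CPM by library, and covers counting error only. CPM was log-transformed with a pseudocount of 1 for library profiles. Named genes are the 10 members, family relatives that passed the filter, the 6 substrates and the 6 regulators with the smallest p, Timp3, Vcan, Col1a1, content markers, and genes of the most similar profile. Igf1 and the relatives below the filter were named after their values were seen. The members, lists and tests were chosen with earlier results of these data known.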

Additional observations from a re-analysis of the deposited data

How the results depend on the processing

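Of 140 recalculated fold changes of the 10 genes, 121 kept their direction and their side of the adjusted threshold, 16 newly passed it, all lower in FID, and 3 changed sign, all of Adamts15 (0.01 without FID 2, 0.21 without control 1 and 0.21 with DESeq2 without control 1). With 1 library left out, Adamts15 ranged from -0.59 to 0.21. With no filter on low counts, edgeR called 269 of 21380 genes, 51 of them lower, and 1 of the 10, Adamts12. DESeq2 called 764 of 12881 genes, 292 of them lower (2.27%), and 3 of the 10. Limma-voom with sample weights called 1531 of 12881 genes, 645 of them lower (5.01%), and 6 of the 10. Without control 1, DESeq2 called 967 of 13134 genes, 308 of them lower (2.35%), and 5 of the 10. The members called were all lower in FID. With 1 library left out, edgeR called between 0 and 359 genes and between 0 and 1 of the 10. The 359 genes, of 13153 tested and with 76 of them lower, were called without FID 1 and included Adamts12 (edgeR adjusted p 0.0433). Without control 1, edgeR called 3 of 13134 genes, all higher, and 0 of the 10. The number of the 10 lower in FID at an unadjusted p under 0.05 ranged from 4 to 6 with 1 library left out. The share of tested genes lower in FID at that p was then 4.17 to 10.9%. With all libraries the number was 8 and the share 9.21%. The number was 4 without FID 1, FID 2 or control 2 and 5 without FID 3. The cause was not tested. Leaving out 1 library moved the log2 fold change of Adamts4 between -1.58 (without control 3) and -0.70, that of Adamts1 between -1.02 and -0.34, and that of Adamts5 between -0.40 and -0.01 (without control 3). Library totals and DESeq2's size factors in edgeR, and limma-voom, called 0 of the 10. With the replicate number as a block, edgeR called 0 genes and 0 of the 10, with 7 of the 10 lower at an unadjusted p under 0.05, beside 9.58% of tested genes. Same-numbered libraries correlated at -0.01, -0.32 and 0.34 in their deviations from the group means, so the numbers were not taken as pairs. Adamts15 had the fewest reads of the 10, and its groups overlapped.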

Other observations

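Control 1 was also the highest library for several scarce ADAMTS relatives. Adamts8, a close relative of Adamts1, stood at 2.03, 3.36 and 2.81 CPM in FID 1, 2 and 3, against 8.90, 2.03 and 0.391 CPM in control 1, 2 and 3. Adamts17 stood at 1.13, 0.630 and 0.108 CPM in FID 1, 2 and 3, against 5.34, 1.42 and 0.391 CPM in control 1, 2 and 3. Adamts18 stood at 1.46, 1.89 and 0.756 CPM in FID 1, 2 and 3, against 5.74, 0.304 and 0.293 CPM in control 1, 2 and 3. Of the 11 further ADAMTS genes, 6 were highest in control 1, the library with the fewest counts. The share of all tested genes highest in it was not computed.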
